A study of Mus musculus with 26 samples.

Results

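The data described here are the 4 arrays, of 26 in the series, that compare serum with 2i medium in Prdm14 knockout embryonic stem cell-like cells carrying a Prdm14 transgene. They were chosen by their titles: 2 arrays of transgene cells kept for 2 days in serum and 2 arrays of the same cells in 2i. Both groups were C57BL/6 and male, were labelled Prdm14 knockout, carried the pPyCAG-AGP14 transgene for a Prdm14 protein with an Avitag and an EGFP tag, and grew on mouse embryonic fibroblast feeders, so both also hold feeder RNA. These cells are called AGP14 cells below, as in the labels, and the labels do not say how many clones they came from. The serum medium was GMEM with 20% fetal bovine serum and LIF at 1000 units per ml. The 2i medium was N2B27 with the same LIF, with CHIR99021, which blocks GSK3, at 3 uM and with PD0325901, which blocks MEK, at 0.4 uM. The media therefore differ in serum, in base medium and in both inhibitors at once. All 26 arrays entered the choice of probe sets and the estimate of the spread behind every p-value. Beside the AGP14 arrays, 6 groups of 2 arrays each are also compared here: wild-type and Prdm14 knockout cells in serum with PD0325901 (0.4 uM), in serum and in 2i.

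Mouse embryonic stem cells self-renew in serum with LIF, where autocrine FGF4 drives the MEK and ERK kinases, and more uniformly in 2i, where MEK is blocked and GSK3 inhibition stabilises beta-catenin. In serum the cells make de novo DNA methyltransferases and, in part of the culture, genes of the later epiblast. Prdm14, a PR-domain protein of naive cells and primordial germ cells, is known to repress those methyltransferases and FGF signalling.

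Values are the deposited levels, 1 per probe set, on a logarithmic scale whose base is taken to be 2 from their range. Each of 18193 genes is represented by its brightest probe set, judged by the mean of the 26 arrays. A difference is serum minus 2i, with the standard error (SE) of a limma fit over all arrays, and a gene was said to have risen or fallen where its adjusted p was under 0.05. The replicate arrays correlated at r = 0.9814 in serum and 0.9843 in 2i over the genes, with median absolute differences of 0.15 and 0.14, while pairs of a serum and a 2i array had median absolute differences of 0.29 to 0.32. Nothing in the labels tells whether the 2 arrays of a group came from different cultures. The p-values therefore reflect only the spread between replicate arrays, pooled over the 13 groups of the series, and that spread may be technical. Arrays of the same replicate number were not paired in the main fit.

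The poly-A spike controls, added to RNA before labelling, split the 26 arrays. The control Lys lay at 6.93 to 7.49 on 14 arrays, among them all 4 AGP14 arrays used here and the wild-type and knockout serum arrays, and at 13.41 to 13.53 on 12 arrays, among them the wild-type and knockout 2i and MEK inhibitor arrays. Serum against 2i in AGP14 cells is therefore a comparison at 1 spike level. In wild type and knockout the medium and the spike level cannot be told apart. Stem cell markers were high on every AGP14 array, with Pou5f1 at 12.61 and 12.52 in serum and 12.44 and 12.44 in 2i.

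The feeder fibroblast markers moved with the medium. Of 29 measured markers, 19 fell and 2 rose (S100a4 and Tagln), with a median difference of -1.18, and none was at 0 on any AGP14 array. Their mean level was 7.13 and 7.10 in serum and 8.51 and 8.29 in 2i, and their summed linear level, as log2, was 13.02 on both serum arrays and 14.49 and 14.29 in 2i. Col1a1, a fibrillar collagen chain, lay at 4.95 and 4.79 in serum and 9.23 and 9.09 in 2i, a difference of -4.29 (SE 0.22, adjusted p = 8.38e-10). Of the 11 blood and endothelial markers 1 rose (Hba-a1) and 1 fell (Adgre1), with mean levels of 4.90 and 4.87 in serum and 4.85 and 4.96 in 2i. In such bulk samples fewer feeder cells and less RNA per feeder cell cannot be told apart, and the part of the feeders in the results below was not tested.

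The Prdm14 probe set gave 6.42 and 6.33 in AGP14 cells in serum and 9.30 and 9.11 in 2i. Both serum arrays lay below both 2i arrays, by 2.83 (SE 0.41, adjusted p = 7.96e-05). The same probe set read 5.40 and 6.47 in serum and 11.33 and 11.24 in 2i on the arrays labelled knockout, so it does not check the deletion, and no source used here states whether it reads the transgene.

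Of 18193 genes, 1814 rose (9.97%) and 1495 fell (8.22%) in AGP14 cells in serum against 2i, 3309 in all (18.2%). Counts of called list members below are to be read beside these shares. The median difference over all genes was 0.01. By size, 427 genes rose and 388 fell at least 2-fold, 88 rose and 90 fell at least 4-fold, and 17 rose and 15 fell at least 8-fold. Arrays bore unequally on the count: 1735 genes were called without AGP14 serum replicate 1, 2099 without 2i replicate 1 and 1969 without 2i replicate 2. The fit of the compared arrays alone called 4517. With the replicate numbers as a block within each genotype, 4811 genes were called with a fixed block and 4362 with a random one. Below, the replicate block is the fixed one unless the random one is named. Of the 185 called genes named in the sections on serum and 2i, 131 kept their call without each array in turn, and those that did not are given where they appear with the highest adjusted p they reached.

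**Figure D1:**
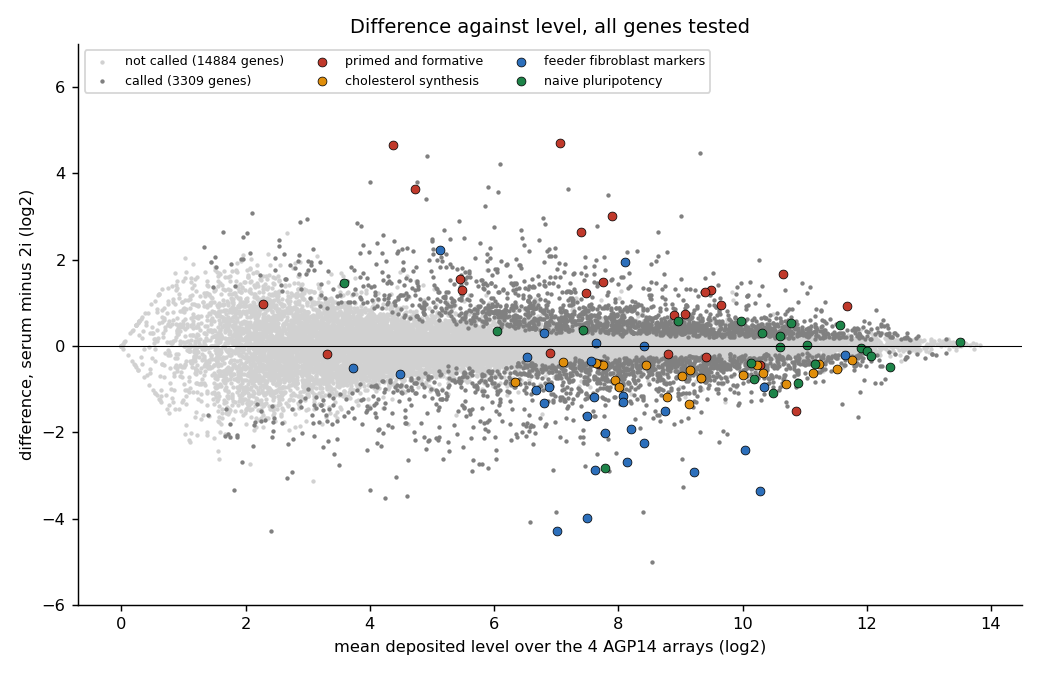
Difference between AGP14 serum and AGP14 2i (vertical axis, log2) against the mean level over the 4 arrays (horizontal axis, log2), 1 point per gene, with 4 gene lists coloured. Cholesterol synthesis genes lie below 0, most feeder markers lie lower still, and most primed and formative genes lie above 0.

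Otx2, a homeobox factor of the formative and primed epiblast, lay at 9.49 and 9.32 in serum and 4.69 and 4.70 in 2i. The difference of 4.71 (SE 0.75, adjusted p = 0.00022) was the largest rise by the rule for named genes. Car4, a membrane carbonic anhydrase, lay at 6.87 and 6.52 in serum and 2.37 and 1.71 in 2i, and Egr1, an immediate early zinc finger factor, at 11.69 and 11.43 in serum and 7.35 and 6.82 in 2i. For all 3 genes the serum arrays stood above the 2i arrays with wide gaps. The differences were 4.66 (SE 0.71) for Car4 and 4.48 (SE 0.30) for Egr1.

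The other genes among the 15 largest rises were Gm9564 (4.41), Myrf (4.21), Myo1f (3.80), Wt1 (3.80), Zfp423 (3.68), Enpp3 (3.64), Fgf5 (3.63), Insm1 (3.58), Dll1 (3.5), Tmem125 (3.41), Sox7 (3.24) and Krtap11-1 (3.08). Several encode transcription factors: Myrf is a membrane-bound factor of myelinating glia, Wt1 a zinc finger factor of kidney and gonad, Insm1 a zinc finger factor of neuroendocrine cells and Sox7 an endoderm and vascular factor. Dll1 is a ligand of Notch receptors and Myo1f an unconventional myosin of leukocytes. A further probe set of Sox7 gave -0.38, and those of Enpp3 ran between 0.07 and 4.30.

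Among the 15 largest falls, 3 were feeder marker genes and others encode secreted proteins of inflammation. Whether the latter transcripts came from feeders or from stem cells was not tested. Saa3, an acute phase serum amyloid, lay at 5.91 and 6.16 in serum and 11.21 and 10.88 in 2i, a difference of -5.01 (SE 0.32, adjusted p = 8.45e-09). The chemokine Cxcl5 fell by 4.08 and the pentraxin Ptx3 by 3.85, while a further probe set of Ptx3 gave -0.09. The matrix genes were Col1a1, Postn (-3.99) and Col3a1 (-3.36). Lcn2 (0.51 and 0.00 in serum, 4.80 and 4.32 in 2i), 4930564D02Rik (0.00 and 0.31 in serum) and 9430021M05Rik (0.00 and 2.26 in serum) touched the lowest deposited value, so the sizes of these falls were not measured. The remainder were the homeobox genes Crxos (-3.86), Cdx2 (-3.35) and Cdx1 (-3.03), the peptidoglycan-binding Pglyrp1 (-3.53), Ppp1r14d (-3.47) and the cation channel gene Trpm1 (-3.27). A further probe set of Cdx2 gave 0.00. Crxos, whose standard error was 1.22, lost its call without any 1 of the 4 arrays (adjusted p up to 0.162).

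**Figure D2:**
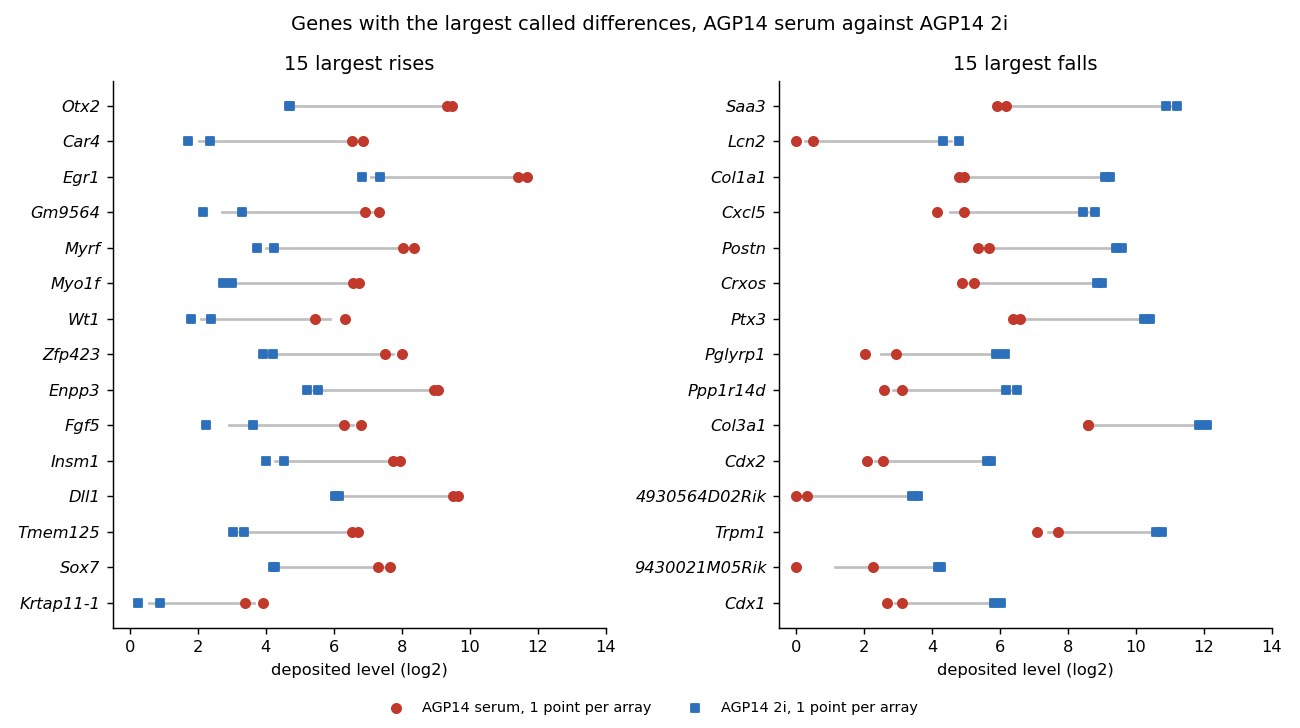
Deposited levels (log2, horizontal axis) of the 15 largest rises and 15 largest falls, with AGP14 serum arrays as red circles and AGP14 2i arrays as blue squares, 1 point per array, and a line between the group means. No gene has overlapping groups, which the rule required, and 3 of the falls have a serum array at 0.

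ERK target genes rose in serum. Of 23 measured immediate early genes and ETS factors that ERK drives, 10 rose and Elk3 fell (-0.74), with a median of 0.47. The Egr family rose furthest: beside Egr1, Egr3 rose by 2.48 (SE 0.55) and Egr2 by 1.94 (SE 0.38). Fos, a subunit of AP-1, lay at 10.58 and 10.60 in serum and 9.20 and 9.26 in 2i, and rose by 1.36. Junb (1.40), Myc (1.69), the ETS factor Etv4 (1.77), the pseudokinase gene Trib1 (1.87), Ier2 (0.62) and Etv5 (0.47) made up the rest of the count. Jun (-0.02), Fosl2 (-0.02) and Srf (0.05) did not pass. Further probe sets gave 0.25 for Etv4 and -0.15 for Trib1. Elk3 lost its call without any 1 of the 4 arrays (adjusted p up to 0.232) and Etv5 without serum replicate 1 or either 2i array (up to 0.224).

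The feedback inhibitors of the pathway followed. Of 18, 8 rose and 1 fell, with a median of 0.50. Spry4, a Sprouty protein that restrains receptor signalling to Ras, lay at 9.99 and 9.92 in serum and 7.52 and 7.12 in 2i, a rise of 2.64 (SE 0.34, adjusted p = 2.88e-05). The ERK phosphatase gene Dusp6 lay at 10.69 and 10.67 in serum and 9.54 and 9.45 in 2i, a rise of 1.19 (SE 0.11). Dusp4 rose by 1.56, Dusp2 by 1.40, Spry1 by 0.93, Dusp5 by 0.65, Errfi1 by 0.53 and Spred1 by 0.48, the last with further probe sets between -1.25 and 0.64. Dusp14 fell by 0.91, and Spry2 (0.17) did not pass. The count of rises was 5 without AGP14 serum replicate 1, 4 without serum replicate 2, 5 without 2i replicate 1 and 4 without 2i replicate 2. Removing any 1 array ended the calls of Dusp5 (adjusted p up to 0.202), Spry1 (0.117) and Spred1 (0.0889), and that of Dusp4 ended without serum replicate 2 or 2i replicate 2 (0.0865). Among 15 FGF ligands and receptors, Fgf5 (3.63), Fgf15 (1.55) and Fgfr3 (0.77) rose, Flrt3 (-1.21) and Fgfr1 (-0.84) fell, and Fgf4 (0.22), the main autocrine ligand of these cells, did not pass. With dim genes left out 7 genes of that list remained, of which 1 rose and 2 fell. The call of Fgfr3 ended without any 1 array (adjusted p up to 0.138), and its sign turned with the mean of all probe sets (-0.13).

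Genes of the primed and formative epiblast rose together, 15 of 24 measured, with 1 fall and a median of 1.10. Fgf5, an FGF ligand of the postimplantation epiblast, lay at 6.80 and 6.30 in serum and 3.62 and 2.23 in 2i, and rose by 3.63 (SE 0.68, adjusted p = 0.000881), while a further probe set gave 0.88. Pou3f1, a POU factor also known as Oct6, lay at 8.97 and 8.48 in serum and 6.10 and 6.07 in 2i, and rose by 2.64 (SE 0.43). Sox3 (1.29), Sox4 (1.26), Zic5 (0.96), Zic2 (0.73), Lef1 (0.72) and Pim2 (1.23) also rose. Lefty2, an inhibitor of Nodal, was the fall, at 9.73 and 10.49 in serum and 11.51 and 11.74 in 2i (-1.51, SE 0.38), while Lefty1, another Nodal inhibitor, rose by 1.29. Nodal (-0.43), Fgf8 (-0.18) and Foxd3 (-0.18) did not pass. Of the wider Nodal and activin list of 18, 5 rose and 4 fell, the falls including the activin antagonist Fst (-1.53) and the activin subunit Inhbb (-1.21). Of that list 2 rose without serum replicate 1, while the falls numbered 1 without serum replicate 1 or 2i replicate 2 and 2 without serum replicate 2 or 2i replicate 1. Sox3 (adjusted p up to 0.109) and Inhbb (0.172) lost their calls without any 1 array, Pim2 without serum replicate 1 or either 2i array (0.164), Lefty2 without serum replicate 1 or 2i replicate 2 (0.145) and Zic2 without 2i replicate 2 (0.106).

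Core pluripotency genes rose in number but little in size. Of 14, 11 rose and Cdh1 fell (-0.21), with a median of 0.49. The epithelial splicing regulator Esrp1 rose by 2.17 (SE 0.28), the chromatin factor Utf1 by 1.68 (SE 0.11), Dppa2 by 1.29, the let-7 inhibitor Lin28a by 1.19 and the adhesion gene Epcam by 1.01. The central factors Pou5f1 (0.13, adjusted p = 0.113) and Sox2 (0.03, adjusted p = 0.89) did not pass. The mean level of the list was 11.37 and 11.27 in serum and 10.62 and 10.60 in 2i, beside feeder markers that moved the other way. The fall of Cdh1 was not called without any 1 array (adjusted p up to 0.241).

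The naive pluripotency genes showed no common direction. Of 22 measured, 4 fell and 2 rose, shares of all genes being 8.22% and 9.97%, with a median of 0.00. Prdm14 (-2.83), the adhesion gene Jam2 (-1.10), Tfcp2l1 (-0.86) and Zfp42 (-0.42) fell, and Klf5 (0.54) and Gdf3 (0.30) rose. Nanog lay at 11.90 and 11.98 in serum and 12.19 and 12.18 in 2i (-0.24, SE 0.18, adjusted p = 0.425). Esrrb lay at 10.56 and 10.65 in serum and 10.61 and 10.64 in 2i (-0.02, SE 0.27). Klf4 (-0.48, SE 0.36), Tbx3 (-0.77, SE 0.34) and Nr5a2 (-0.40, SE 0.29) did not pass either. Both serum arrays lay below both 2i arrays for 10 of the 22 genes, these among them, and above both for 10. Over all 18193 genes tested the numbers were 5269 below and 5642 above. Further probe sets ran between -0.99 and 0.02 for Tfcp2l1 and between -1 and 0.26 for Klf5. The falls numbered 1 without serum replicate 1, 2 without serum replicate 2, 1 without 2i replicate 1 and 2 without 2i replicate 2. Without any 1 array Tfcp2l1 (adjusted p up to 0.21) and Jam2 (0.0875) were not called, Zfp42 not without serum replicate 1 or 2i replicate 1 (0.123) and Gdf3 not without either serum array or 2i replicate 1 (0.293). With the mean of all probe sets Klf5 gave -0.07 and the list had no rise and 2 falls. With the replicate block it had 4 rises and 5 falls, and in the fit of the compared arrays alone 6 and 8.

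Genes of the LIF and STAT3 pathway were split, with 3 rises and 3 falls among 18, where 9.97% of all genes rose and 8.22% fell. Both media held LIF. The kinase gene Pim3 (1.37), Junb (1.40) and the inhibitor gene Socs2 (0.86) rose, and the receptor genes Osmr (-1.12) and Il6st (-0.41) and the target Tfcp2l1 fell. Stat3 itself gave 0.02 (SE 0.14) and its feedback target Socs3 0.44 (SE 0.18), neither of which passed. With the mean of all probe sets the falls of this list numbered 1. Socs2 was not called without serum replicate 1 or 2i replicate 2 (adjusted p up to 0.0801).

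The de novo DNA methylation machinery rose. Dnmt3a, a de novo methyltransferase, lay at 9.72 and 9.07 in serum and 6.40 and 6.38 in 2i, a rise of 3.01 (SE 0.36, adjusted p = 1.37e-05), with further probe sets between 0.02 and 2.25. Dnmt3l, its catalytically inactive partner, lay at 11.59 and 11.39 in serum and 9.93 and 9.72 in 2i (1.67, SE 0.17). Dnmt3b lay at 12.27 and 12.01 in serum and 11.26 and 11.17 in 2i (0.93, SE 0.25, adjusted p = 0.014). Of the 11 genes measured, Mbd3 (0.61), Trim28 (0.29) and Hells (0.28) were the other rises, and none fell. The maintenance genes Dnmt1 (0.09) and Uhrf1 (-0.28) did not pass. Of 8 demethylation genes, Tet1 (0.45) and Gadd45a (1.57) rose and none fell, and further probe sets of Tet1 ran between -0.36 and 1.26. The call of Dnmt3b ended without serum replicate 1 or either 2i array (adjusted p up to 0.134) and that of Hells without serum replicate 1 or 2i replicate 2 (0.111).

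Germline genes whose promoters are known to be silenced by methylation were not lower in serum. Of 26 measured, 8 rose and none fell, with a median of 0.66. The helicase gene D1Pas1 lay at 8.16 and 7.77 in serum and 6.06 and 4.95 in 2i (2.46, SE 0.42), and the piRNA pathway gene Mael at 8.72 and 8.37 in serum and 6.86 and 6.52 in 2i (1.86, SE 0.34). Slc25a31 (1.51), Piwil2 (1.46), the synaptonemal complex genes Sycp3 (1.39) and Sycp1 (1.15), Stra8 (1.19) and Stk31 (0.94) also rose. Dazl (0.71) and Ddx4 (0.84) did not pass. With the random replicate block 12 rose and 1 fell. The rises numbered 3 without serum replicate 1, 4 without serum replicate 2, 5 without 2i replicate 1, 4 without 2i replicate 2 and 14 with the replicate numbers as a block. Stk31 (adjusted p up to 0.288), Sycp1 (0.232) and Stra8 (0.117) lost their calls without any 1 array, Sycp3 without either serum array or 2i replicate 2 (0.0616) and Slc25a31 without serum replicate 1 or 2i replicate 1 (0.0676).

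More targets of beta-catenin fell than rose in serum, the medium without the GSK3 inhibitor. The promoter windows of the targets Sp5 and Dkk1, shown because both genes fell and each window holds 1 match to the T-cell factor motif CTTTGAT or CTTTGAA, are the 250 bases before the gene's start in RefSeq, build GRCm38.p6, on the gene's strand, with the match in capitals. They lie at chr2:70474673-70474922 on the plus strand for Sp5 and at chr19:30549497-30549746 on the minus strand for Dkk1.
Sp5: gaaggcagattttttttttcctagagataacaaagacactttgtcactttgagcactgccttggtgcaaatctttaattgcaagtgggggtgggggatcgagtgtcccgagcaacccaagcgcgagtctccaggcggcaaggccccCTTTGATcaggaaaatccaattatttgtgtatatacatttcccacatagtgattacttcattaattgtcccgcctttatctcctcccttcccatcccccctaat
Dkk1: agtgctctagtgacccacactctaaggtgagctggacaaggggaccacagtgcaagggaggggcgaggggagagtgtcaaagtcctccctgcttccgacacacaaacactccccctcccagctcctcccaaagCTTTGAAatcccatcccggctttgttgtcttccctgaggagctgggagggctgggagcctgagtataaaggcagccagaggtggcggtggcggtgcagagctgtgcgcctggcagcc
Windows from 250 bases before to 50 bases after the start were searched on either strand. The motif was present in 6.99% of 14368 promoters, in 4.62% of those of genes that rose and in 5.48% of those of genes that fell. Of the 17 beta-catenin targets with a promoter, 2 held it, the 2 shown. A match is a description of the letters only.

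Of 28 measured beta-catenin targets, 11 fell and 4 rose, with a median of -0.35. Sp5, a zinc finger factor, lay at 6.52 and 6.29 in serum and 9.32 and 9.29 in 2i, a fall of 2.90 (SE 0.32, adjusted p = 5.05e-06). Axin2, a scaffold that feeds back on the pathway, lay at 6.74 and 6.78 in serum and 8.92 and 8.90 in 2i, a fall of 2.15 (SE 0.19, adjusted p = 5.05e-07). The R-spondin receptor gene Lgr5 lay at 3.54 and 3.88 in serum and 6.40 and 5.80 in 2i (-2.39, SE 0.36), although a further probe set gave 1.57. Cdx2 and Cdx1, homeobox genes of the posterior axis and of trophoblast or gut, lay between 2.09 and 3.12 in serum and between 5.62 and 6.04 in 2i. Dkk1, a secreted Wnt inhibitor, fell by 1.23 (SE 0.21), with a further probe set at 0.02, and Tnfrsf19, Ccnd2, Cd44, Znrf3 and Apcdd1 fell by 0.45 to 0.92. The rises were Bmp4 (2.33), Myc (1.69), Id2 (1.48) and Lef1 (0.72), of which Bmp4 and Id2 are also in the BMP list. Ccnd1 gave -0.08. The falls numbered 6 with the mean of all probe sets. With dim genes left out 16 targets remained, of which 6 fell. Falls were also fewer without any 1 array, most so without 2i replicate 1. Apcdd1 (adjusted p up to 0.279) and Tnfrsf19 (0.152) were not called without any 1 array, Cd44 not without either serum array or 2i replicate 1 (0.25) and Znrf3 not without 2i replicate 1 (0.0786).

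In the upper part of the Wnt pathway, 6 of 31 ligand, receptor and factor genes fell and 3 rose. Of all genes 8.22% fell and 9.97% rose. Wnt5b fell by 1.76, the Wnt carrier Wls by 1.63 and the receptor gene Fzd10 by 1.07, while Porcn, the acyltransferase that lipid-modifies Wnt proteins, lay at 6.27 and 6.08 in serum and 4.22 and 4.01 in 2i, a rise of 2.06 (SE 0.32). The kinase gene Gsk3b fell by 0.75 (SE 0.17). Ctnnb1, which encodes beta-catenin, gave 0.00, and its partners Tcf7l1 (-0.25) and Tcf7l2 (-0.16) did not pass. Without serum replicate 1 the falls of the list numbered 3, and with the replicate block the rises numbered 5. Fzd10 lost its call without serum replicate 1 or 2i replicate 2 (adjusted p up to 0.101) and Gsk3b without 2i replicate 1 (0.0622).

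Of 20 BMP response genes 5 rose and 2 fell, with a median of 0.04. Id1, a helix-loop-helix inhibitor, lay at 8.59 and 8.39 in serum and 6.28 and 6.58 in 2i, a rise of 2.06 (SE 0.28, adjusted p = 4.45e-05). Id2 (1.48), Id3 (0.91), the ligand gene Bmp4 (2.33) and the ERK phosphatase gene Dusp9 (0.91) rose too, and Id4 (-1.23) and the receptor gene Bmpr2 (-0.62) fell. The rises numbered 3 without serum replicate 1, 3 without 2i replicate 1 and 2 without 2i replicate 2. Among them, Dusp9 was not called without serum replicate 1 or either 2i array (adjusted p up to 0.24), Id3 not without serum replicate 1 or 2i replicate 2 (0.109) and Id2 not without serum replicate 2 or either 2i array (0.0738). Of 16 retinoic acid genes 4 rose, Crabp2 (1.90), Rarg (1.74), Meis1 (1.39) and Stra8, and Crabp1 fell (-0.49). With dim genes left out 4 genes of this list remained, of which 1 rose and 1 fell. Of 13 glucocorticoid response genes 5 rose and none fell, Gadd45g furthest (2.82, SE 0.30), and 3 rose with the mean of all probe sets. The fall of Crabp1 was not called without 2i replicate 1 (adjusted p = 0.0619).

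Cholesterol synthesis genes fell almost without exception. Of 20 measured, 19 fell and none rose, with a median of -0.62. For all 20 both serum arrays lay below both 2i arrays, as they did for 5269 of the 18193 genes tested. Tm7sf2, a sterol reductase gene, lay at 8.51 and 8.41 in serum and 9.67 and 9.95 in 2i (-1.35, SE 0.15, adjusted p = 6.77e-06), and Dhcr7, the last reductase of the pathway, at 8.25 and 8.13 in serum and 9.29 and 9.46 in 2i (-1.18, SE 0.15). Sqle (-0.62), Insig1 (-0.54) and Hmgcs1 (-0.32) fell less, Hmgcs1 with further probe sets between -0.43 and 0.19, and Srebf2, the factor that drives the pathway, fell by 0.55 (SE 0.07). Mvd (-0.40, adjusted p = 0.0932) was the member that did not pass.

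Fatty acid synthesis and storage genes followed, with 14 falls and no rise among 22, and a median of -0.53. The stearoyl-CoA desaturase gene Scd1 lay at 8.54 and 8.47 in serum and 10.65 and 10.82 in 2i (-2.23, SE 0.09, adjusted p = 3.69e-11), and Scd2 at 11.04 and 11.03 in serum and 12.63 and 12.75 in 2i (-1.65, SE 0.06). Lipoprotein lipase Lpl (-1.66), the desaturases Fads1 (-1.50) and Fads2 (-0.74), the lipid droplet protein Plin2 (-1.22), Srebf1 (-0.57) and Fasn (-0.33) fell. Acaca (0.11), the carboxylase of the first step, did not pass. These genes are also active in fibroblasts. Fasn was not called without serum replicate 2 or either 2i array (adjusted p up to 0.105), Fads2 (0.0999) and Lpl (0.0722) not without serum replicate 1 or 2i replicate 2, and Srebf1 not without 2i replicate 2 (0.0631).

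Lysosomal genes fell, 11 of 20 with 1 rise and a median of -0.34. The glycoprotein gene Gpnmb fell by 2.44, with a further probe set at 0.68, the protease gene Ctsb by 0.95 (SE 0.10) and the membrane protein gene Lamp2 by 0.94 (SE 0.13). Tfe3, a factor of lysosome genes, was the rise (0.55). Its call ended without serum replicate 1 or 2i replicate 1 (adjusted p up to 0.0903). Of 26 respiratory chain subunits 8 fell and none rose, by 0.16 to 0.27, over a median of -0.07. That count was 1 without serum replicate 1, 4 without serum replicate 2, 5 without 2i replicate 1, 1 without 2i replicate 2, 4 without the intensity trend and 5 with the mean of all probe sets. Of 21 glycolysis genes 6 rose, Pdk1 furthest (1.46, SE 0.13), and Hk1 fell (-1.28), against 10 rises and 4 falls with the replicate block.

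Amino acid and integrated stress response genes rose more often than they fell, 11 of 26 with 2 falls and a median of 0.31. Chac1, a glutathione-degrading enzyme gene, lay at 9.83 and 9.33 in serum and 8.16 and 8.34 in 2i (1.33, SE 0.21), and Stc2 (1.33), the amino acid transporter genes Slc7a3 (0.85) and Slc7a5 (0.42) and the mitochondrial folate enzyme genes Mthfd2 (0.82) and Shmt2 (0.58) rose. Atf4 (-0.01) did not pass, and Asns (-0.29) and Sesn2 (-0.45) fell. The rises numbered 4 without serum replicate 1 and 4 without 2i replicate 1. Those lost included Slc7a5 (adjusted p up to 0.0917) and Stc2 (0.0627), and Shmt2 was lost without any 1 array (0.0723).

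Mitotic genes rose by small amounts. Of 22, 15 rose and none fell, with a median of 0.32. Cenpe, a kinetochore motor, lay at 8.94 and 8.70 in serum and 7.64 and 7.32 in 2i (1.34, SE 0.15), with a further probe set at 0.40, and the others rose by 0.21 to 0.53, such as Plk1 (0.45, SE 0.07). The count was 8 without serum replicate 1 and 9 with the mean of all probe sets. In G1 control, Ccne1 (1.21, SE 0.10), Mycn (1.03) and Cdkn1c (1.45) rose, and the inhibitors Cdkn1a (-1.10), Cdkn2a (-0.99) and Cdkn2b (-0.65) and cyclin gene Ccnd2 (-0.69) fell, of which 2 were called without each array in turn. Of 18 p53 response genes 6 fell, Cdkn1a and Ccng1 (-0.82) among them, and Pmaip1 rose (1.06), while 3 fell with the mean of all probe sets. Cdkn2a (adjusted p up to 0.141) and Cdkn2b (0.0753) were not called without any 1 array, and Cdkn1c not without serum replicate 1 or either 2i array (0.2). The Cdkn2 genes and Cdkn1a are active in cultured fibroblasts.

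**Figure D3:**
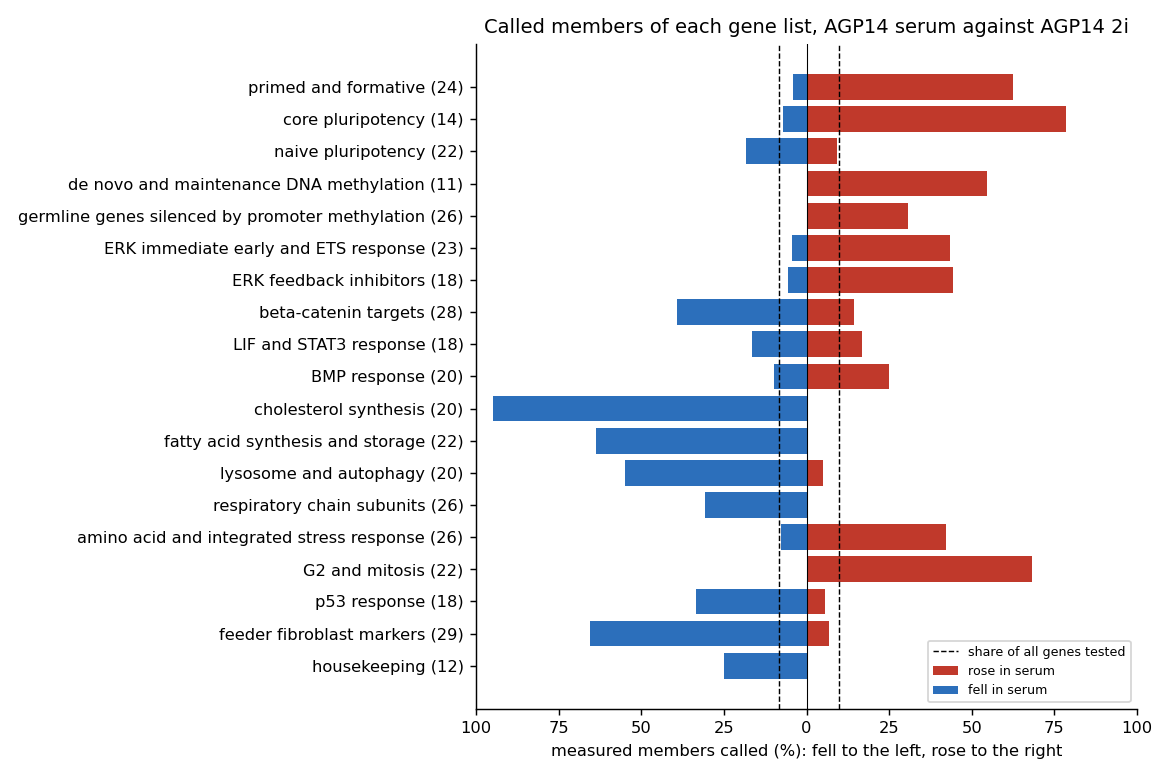
Share of measured members of each gene list (percent, number measured in brackets) that fell (left, blue) or rose (right, red) in AGP14 serum against AGP14 2i, with dashed lines at the share of all genes tested, 8.22% for falls and 9.97% for rises. Cholesterol synthesis has the largest share of falls and core pluripotency the largest share of rises among the lists drawn.

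Several smooth muscle contractile genes rose in serum. The promoter window of Myl9, a smooth muscle myosin light chain gene that rose, is shown because it holds 1 match to the serum response element (CArG box) of smooth muscle and immediate early genes, written in capitals and read on the opposite strand. It covers chr2:156775214-156775463 on the plus strand of GRCm38.p6, from RefSeq.
Myl9: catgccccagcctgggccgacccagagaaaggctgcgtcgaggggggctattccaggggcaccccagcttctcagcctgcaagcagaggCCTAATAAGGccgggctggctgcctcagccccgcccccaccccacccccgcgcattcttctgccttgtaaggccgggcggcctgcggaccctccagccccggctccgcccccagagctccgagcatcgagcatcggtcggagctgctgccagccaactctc
That motif was present in 11 of 14368 promoters, or 0.0766%, in 3 of 1449 promoters of genes that rose and in none of 1204 of genes that fell. The ETS motif CCGGAAGT was present in 7.80% of promoters of rises, 5.15% of falls and 6.17% of all, and the cAMP response element TGACGTCA in 4.14%, 1.99% and 2.69%. The ETS and cAMP motifs were searched on either strand of the same windows. Of the 23 measured genes of the ERK immediate early and ETS list, 14 had a promoter to search. None of these held the ETS motif or either searched form of the serum response element. Other forms and more distant bases were not searched.

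Myl9 lay at 5.86 and 4.68 in serum and 3.84 and 2.38 in 2i (2.16, SE 0.46, adjusted p = 0.00239), and its replicates were far apart in both media. Tagln lay at 6.31 and 6.16 in serum and 4.23 and 3.80 in 2i (2.22, SE 0.30), and Cnn1, a smooth muscle calponin gene, at 5.09 and 4.74 in serum and 2.66 and 2.88 in 2i (2.15, SE 0.39). Of 26 genes in the cytoskeletal list 6 rose and 4 fell, the falls being the annexin genes Anxa3 (-1.23) and Anxa1 (-1.09), Tpm4 (-0.63) and Lgals1 (-0.45). Actb (0.05), Vcl (-0.11) and Acta2 (0.00) did not pass. The rises numbered 3 without serum replicate 1 and 3 without 2i replicate 2. Myl9 was lost on both occasions (adjusted p up to 0.0728), and Lgals1 was not called without either serum array or 2i replicate 1 (0.113). Tagln and Acta2 are also among the feeder markers.

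Lineage markers moved singly rather than as groups. Of 19 neuroectoderm genes 4 rose and none fell: Dll1 (3.5), Pax6 (2.90, further probe sets between 0.14 and 1.5), Neurod1 (2.27) and the neuronal tubulin gene Tubb3 (1.66). Of 22 mesoderm and primitive streak genes none rose and Cdx2, Cdx1 and Snai1 (-0.79) fell. Leaving out dim genes kept 1 gene of this list, which was not called, so that setting did not test these falls. Of 22 extraembryonic endoderm genes Sox7 rose, while the basement membrane genes Col4a1 (-1.23), Col4a2 (-1.24) and Sparc (-1.06), which fibroblasts also express, and Srgn (-1.65) fell. Gata4 (0.30), Gata6 (-0.07) and Sox17 (0.10) did not pass. Of 20 trophoblast and keratin genes Krt8 (-1.71), Elf5 (-1.18), Tead4 (-0.83) and Cdx2 fell, and Ascl2 (0.75) rose. The falls of the trophoblast list numbered 2 without serum replicate 2 or 2i replicate 2. Ascl2 (adjusted p up to 0.214) and Tead4 (0.142) were not called without any 1 array, Elf5 not without serum replicate 2 or 2i replicate 2 (0.247), Srgn not without serum replicate 1 or 2i replicate 2 (0.0885) and Snai1 not without serum replicate 2 or 2i replicate 1 (0.169). In the polycomb list of 23, 7 rose, Phc1 furthest (1.22, SE 0.10), and Bmi1 (-1.59) and Rbbp7 (-0.26) fell, while 4 rose with the mean of all probe sets. Of 26 imprinted genes 5 rose and 4 fell, Plagl1 furthest (-1.96), where 9.97% of all genes rose and 8.22% fell. The random replicate block gave the same counts for this list. The rises numbered 1 without serum replicate 1, 3 without 2i replicate 1, 2 without 2i replicate 2 and 10 with the replicate block, and the falls 2 without either serum array or 2i replicate 1. B2m, the light chain of MHC class I, lay at 8.68 and 8.75 in serum and 10.86 and 10.68 in 2i (-2.05, SE 0.19).

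The change in AGP14 cells was set against that in wild-type and knockout cells, in which serum and 2i arrays also differ in spike level. No array is shared between these comparisons. Of the 1814 genes that rose in AGP14 cells, 1040 (57.3%) also rose in wild type, where 15.2% of all genes did, and of the 1495 that fell, 1095 (73.2%) also fell in wild type, where 19.4% of all genes did. In all, 6286 genes (34.6%) were called in wild type and 6506 (35.8%) in knockout, against 3664 and 4934 in fits of the compared arrays alone. Quantile normalization turned their splits to 3560 rises and 2888 falls in wild type and 3854 and 2845 in knockout. Taken from the other side, 37.7% of the 2760 wild-type rises and 31.1% of the 3526 wild-type falls were called in AGP14 cells. The differences correlated at r = 0.47 across 18193 genes, which are not independent replicates. In knockout cells the shares were 59.9% of rises and 74.8% of falls, where 15.8% and 20.0% of all genes rose and fell.

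**Figure D4:**
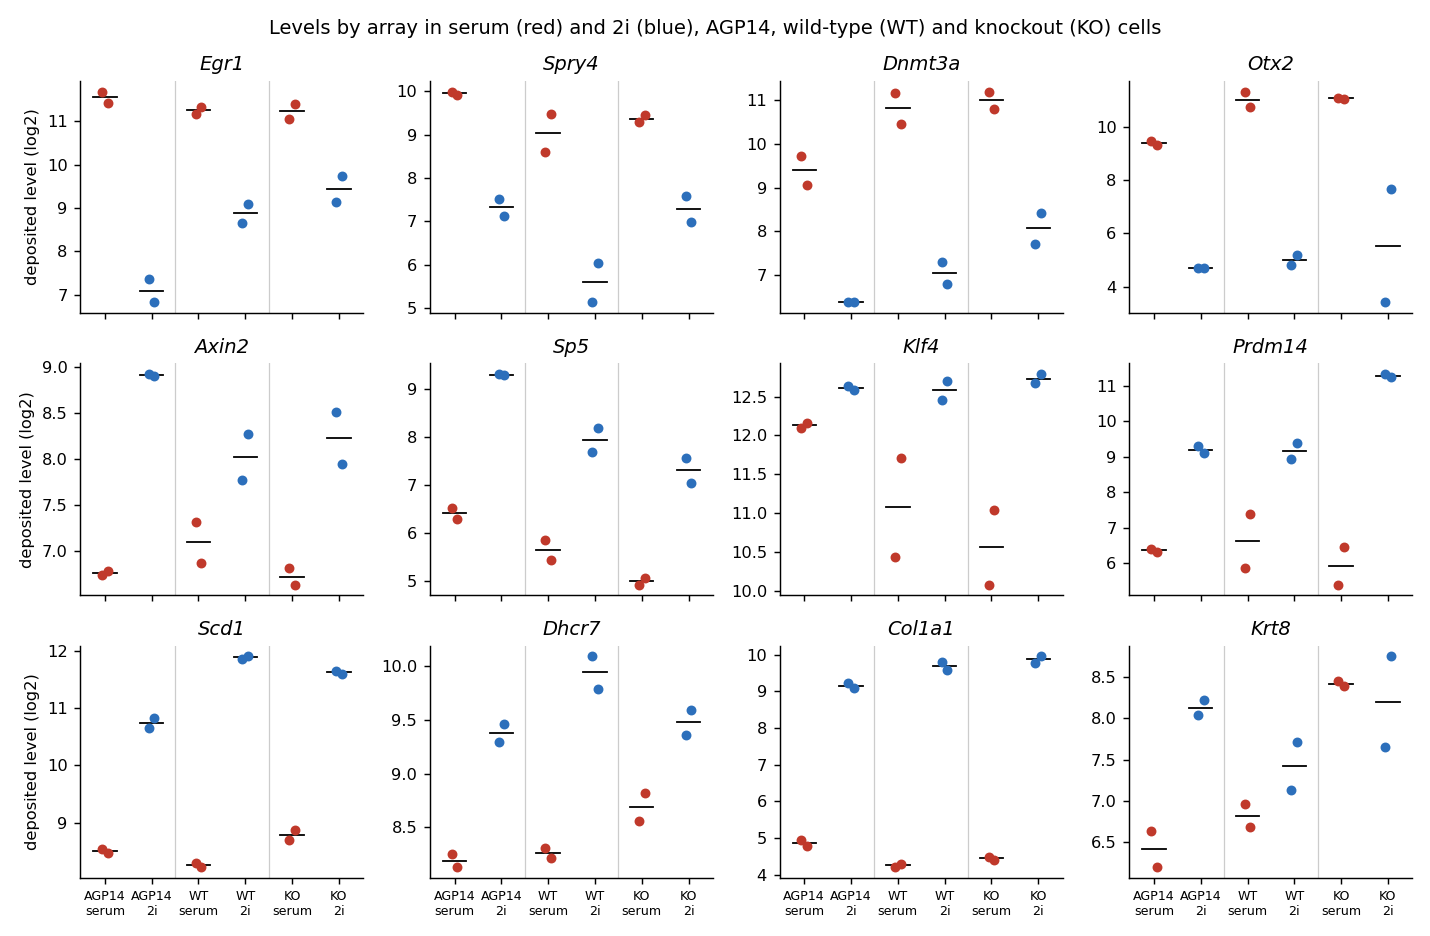
Deposited levels (log2, vertical axes, 1 scale per gene) of 12 genes in serum (red) and 2i (blue) in AGP14, wild-type (WT) and knockout (KO) cells, 1 point per array with the mean as a line. Otx2, Dnmt3a and Spry4 are higher in serum and Scd1 and Col1a1 lower in serum in all 3 lines, while the Klf4 means differ by 0.48 in AGP14 cells and by 1.5 in wild type.

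The difference between the AGP14 change and the wild-type change itself passed for 2426 genes (13.3%), of which 1611 were more positive (8.86%) and 815 more negative (4.48%) in AGP14 cells. Quantile normalization turned the split to 1091 more positive and 1384 more negative, so the split between directions depends on the scaling. With the replicate numbers as a block the count was 4127 for the fixed and 3634 for the random block. It was 1469 without AGP14 serum replicate 1, 1592 without AGP14 2i replicate 1, 1503 without AGP14 2i replicate 2 and 1500 without wild-type serum replicate 1. Feeder markers differed too: 16 of 29 had a more positive change in AGP14 cells, with a median change of -1.18 in AGP14 and -2.11 in wild type. Against knockout cells 2589 genes passed (14.2%), 1772 more positive (9.74%) and 817 more negative (4.49%), or 1109 and 1566 after quantile normalization and 4168 in all with the replicate block. Quantile normalization moved the median of all genes from 0.02 to -0.1 in the difference from knockout and from 0.05 to -0.05 in that from wild type.

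Among the 22 naive genes, 10 had a more positive change in AGP14 cells than in wild type and none a more negative one, also after quantile normalization. The lysosomal genes had 11 of 20 more positive, or 7 after quantile normalization, and none more negative. Tfcp2l1 changed by -0.86 in AGP14 cells and -3.06 in wild type, a difference of 2.20 (SE 0.41, adjusted p = 0.00168), Nanog by -0.24 and -1.62 (1.38, adjusted p = 0.00172), and Esrrb by -0.02 and -1.41 (1.40, adjusted p = 0.0199). For Klf4 the changes were -0.48 and -1.50, and their difference of 1.03 did not pass (adjusted p = 0.217). The Klf4 difference did pass with the fixed replicate block (1.02, adjusted p = 0.0171) and was 1.66 without wild-type serum replicate 2. Of the methyltransferase genes, Dnmt3b rose less in AGP14 cells, by 0.93 against 3.39 in wild type (-2.46, adjusted p = 0.000187). So did Dnmt3l, by 1.67 against 3.69 (-2.02, adjusted p = 3.39e-05). Dnmt3a rose by 3.01 and 3.77, and the difference did not pass (adjusted p = 0.383). With the mean of all probe sets the Dnmt3a difference did pass (-1.22, adjusted p = 0.037), while that for Esrrb did not (1.03, adjusted p = 0.0724). The difference for Esrrb was not called without any 1 of 6 arrays, among them wild-type serum replicate 1 (1.02, adjusted p = 0.111), and that for Tfcp2l1 not with the mean of all probe sets (0.31, adjusted p = 0.769).

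Of the 23 ERK immediate early and ETS genes, 7 changed more positively in AGP14 cells than in wild type and 2 more negatively, or 5 and 2 after quantile normalization. Of the 18 feedback inhibitors 1 was more positive and 2 more negative. Fos rose by 1.36 in AGP14 cells and changed by -1.43 in wild type (2.80, adjusted p = 5.06e-05), and Egr1 rose by 4.48 and 2.38 (2.10, adjusted p = 0.00307). Dusp6 rose by 1.19 in AGP14 cells and 2.31 in wild type (-1.12, adjusted p = 0.000131), and Myc by 1.69 and 3.55 (-1.86, adjusted p = 0.000473). Among beta-catenin targets Axin2 fell further in AGP14 cells, by 2.15 against -0.93 in wild type (-1.22, adjusted p = 0.00529), and Sp5 did not differ past the threshold (-0.59, adjusted p = 0.45). With the mean of all probe sets the difference for Axin2 was not called either (-1.02, adjusted p = 0.107). Of the 20 cholesterol genes, 8 changed more positively in AGP14 cells than in wild type, or 7 after quantile normalization, and none more negatively. Of the 22 fatty acid genes 3 changed more positively and 1 more negatively, or 3 and 2 after quantile normalization. Of all genes 8.86% changed more positively and 4.48% more negatively.

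A readout free of AGP14 arrays came from wild-type and knockout cells in serum with and without the MEK inhibitor that 2i also holds, a comparison in which inhibitor and spike level cannot be told apart. In wild type 4630 genes were called (25.4%), 2597 higher (14.3%) and 2033 lower (11.2%) with the inhibitor, and in knockout 4461 (24.5%), 2721 (15%) and 1740 (9.56%). Quantile normalization turned the split to 1996 higher and 2920 lower in wild type and 1940 higher and 2884 lower in knockout. Of the 1814 genes that rose in AGP14 serum, 634 (35.0%) were lower with the inhibitor in wild type, where 11.2% of all genes were, and 198 (10.9%) higher. Of the 1495 that fell, 736 (49.2%) were higher, where 14.3% of all genes were, and 72 (4.82%) lower. The differences correlated at r = -0.29 in wild type and -0.26 in knockout across genes. In the fit of the compared arrays alone the count was 1822 in wild type and 2602 in knockout. It was 2980 without wild-type serum replicate 1, 2973 without wild-type MEK inhibitor replicate 2 and 2940 without knockout MEK inhibitor replicate 2, against the full counts above.

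Of the 23 ERK immediate early and ETS genes 7 were lower and 3 higher with the inhibitor in wild type, and 6 and 3 in knockout (8 and 1 after quantile normalization). Of the 18 feedback inhibitors 7 were lower and 1 higher in wild type, and 9 and 1 in knockout. By group, the genes that the inhibitor lowered in wild-type serum included Spry4 (-2.23, adjusted p = 9.67e-05), Etv4 (-2.02), Dnmt3a (-2.09), Dusp6 (-0.89) and Egr1 (-1.14, adjusted p = 0.00872). Otx2 (-1.32, adjusted p = 0.227) and Fgf5 (-1.45, adjusted p = 0.132) did not pass in wild type. The wild-type arrays with the inhibitor were far apart for Fgf5, at 7.79 and 4.94. Its difference was -2.88 without MEK inhibitor replicate 1. It passed with the fixed (adjusted p = 0.00684) and the random replicate block (0.0446). With the inhibitor in knockout Fgf5 was lower (-3.45, adjusted p = 0.000949), as were Spry4 (-2.22), Etv4 (-2.78), Dnmt3a (-1.77) and Dusp6 (-1.54). Otx2 (-1.27, adjusted p = 0.256) and Egr1 (-0.83, adjusted p = 0.0525) did not pass there. Otx2 did pass in the fit of the compared knockout arrays alone (adjusted p = 0.00322). Without knockout MEK inhibitor replicate 2 Egr1 was called (-1.52, adjusted p = 0.000338), as it was after quantile normalization (-0.95, adjusted p = 0.0234), with the replicate block (adjusted p = 0.00505) and with dim genes left out (0.0401). In wild type Egr1 was not called without serum replicate 2 (adjusted p = 0.0521) or MEK inhibitor replicate 2 (0.0861), nor Dnmt3a in the fit of the compared arrays alone (0.072). Of 22 naive genes 14 were higher with the inhibitor in wild type and 18 in knockout. Of the beta-catenin targets, Axin2 (-0.09), Sp5 (-0.60), Lgr5 (-0.37) and Cdx2 (-0.52) did not pass with the inhibitor in wild type. These 4 did not pass in knockout either. Without wild-type MEK inhibitor replicate 1 Sp5 gave -1.12. Scd1 was higher with the inhibitor by 1.37 in wild type and 0.54 in knockout, where the mean of all probe sets gave 0.10 (adjusted p = 0.512). Dhcr7 gave 0.27 in wild type, past the threshold with the replicate block alone (adjusted p = 0.0214), and -0.58 in knockout (adjusted p = 0.00698), where it was not called without serum replicate 2 (-0.46, adjusted p = 0.0921) or MEK inhibitor replicate 1 (-0.46, adjusted p = 0.0816). In the fit of the compared knockout arrays alone neither Scd1 (adjusted p = 0.0525) nor Dhcr7 (0.0506) was called. Of 20 cholesterol genes 5 were higher and 1 lower with the inhibitor in wild type, and 3 and 6 in knockout, where quantile normalization gave 4 and 2 in wild type and 1 and 11 in knockout. Of the 29 feeder markers 24 were higher with the inhibitor in wild type, and their mean level was 7.76 and 7.87 with it and 6.52 and 6.76 in serum.

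**Figure D5:**
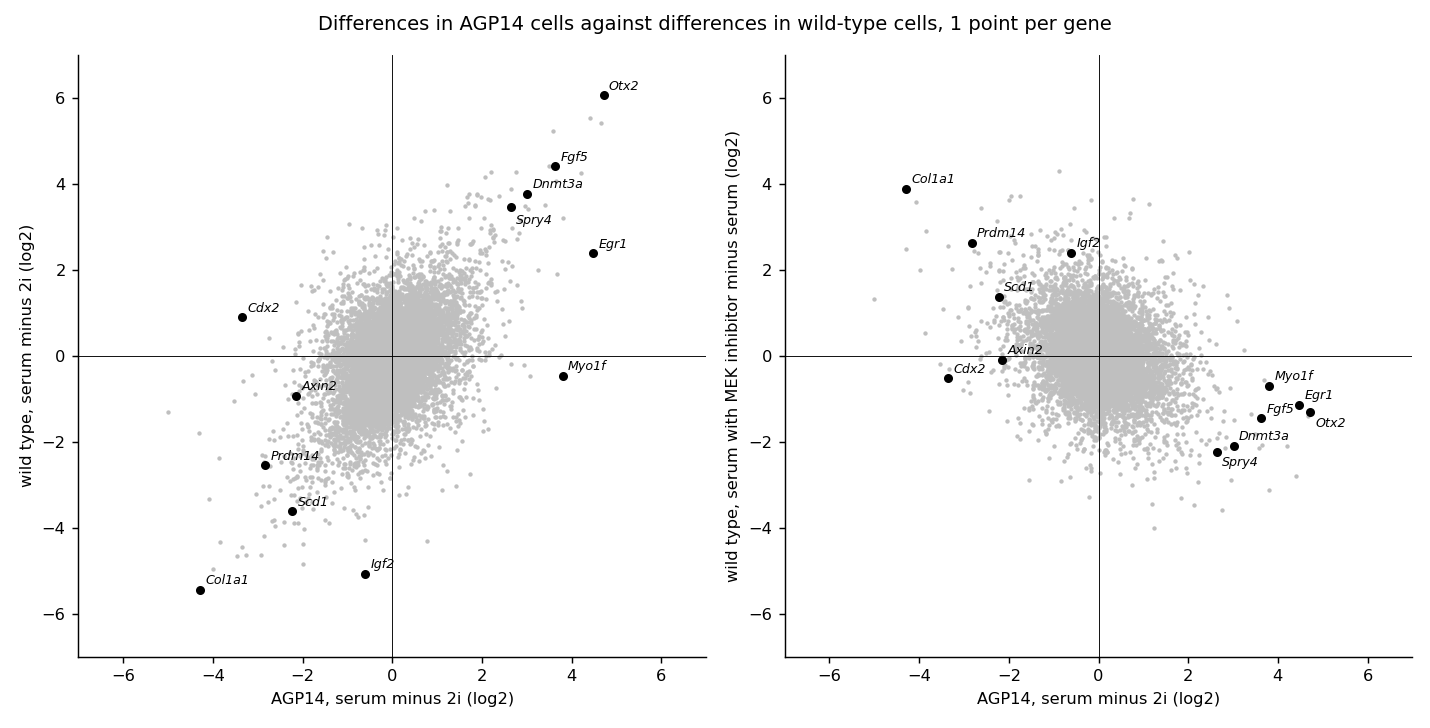
Change in AGP14 cells (serum minus 2i, log2, horizontal axes) against the change in wild-type cells for serum minus 2i (left) and for serum with MEK inhibitor minus serum (right), 1 point per gene with 12 genes named. Most named genes share their sign on the left, where Cdx2 and Myo1f lie across an axis, and Col1a1, Prdm14 and Spry4 have opposite signs in the right panel.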

How the data were processed

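Affymetrix arrays of cRNA from 1 round of labelling were measured on 26 arrays in 13 groups of 2, per the labels' protocols. The deposited values are log2 levels per probe set, with the base inferred from the highest value (13.89), a lowest value of 0 and array medians of 4.86 to 5.01. The sources used here do not state how the authors made them. Of 45100 probe sets, 34944 had 1 gene symbol, 932 several and 9160 none in the platform table, and 64 were controls. Each of 18193 genes took its probe set with the highest mean. The fit was limma 3.58.1 (R 4.3.3) with 1 coefficient per group, an intensity trend in eBayes, two-sided tests and Benjamini-Hochberg adjustment over all genes, called at adjusted p under 0.05. Alternatives were quantile normalization, the mean of all probe sets, no trend, dim genes left out (mean under 6.21), the compared arrays alone, a fixed and a random replicate block, and each array left out. The fit of the 14 arrays of the low spike level was added after seeing the data.

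Same-numbered arrays deviated together (correlations of 0.42 to 0.518 over 9097 genes), and what they share was not tested. The main fit did not pair them, while the fits with a replicate block took account of the numbers. Named genes were Prdm14, the 15 largest rises and falls whose arrays do not overlap, the 6 largest of each direction in each difference between genotypes, and members of 43 gene lists. The members and lists were chosen with earlier results of these data known. Promoters came from RefSeq (GRCm38.p6). On simulated data for serum against 2i over 18193 genes, 10 of 50 genes changed 1.5-fold, 28 of 50 changed 2-fold, 36 of 50 changed 4-fold and 47 of 50 changed 8-fold were recovered, and 6 unchanged genes were called. The simulated arrays had independent errors, without the shared deviation of same-numbered arrays. Far fewer genes were changed than were called in the data, so these recoveries need not hold for the data. With 2 arrays in a group, precision is limited by array number.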

Additional observations from a re-analysis of the deposited data

Results flagged for a closer look

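The results below are those whose change between serum and 2i differed between AGP14 cells and another genotype by a test of the difference itself, in the limma fit. Each sets arrays of unlike spike level against each other, which was not tested apart from genotype and medium. The change differed for 2426 genes between AGP14 and wild type and for 2589 genes between AGP14 and knockout.

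More positive in AGP14 than in wild type were Gm20767 (a difference of 5.08), Prss3 (4.50), Igf2 (4.46), AF067061 (4.46), Myo1f (4.28) and Fuz (4.24). Igf2, an imprinted growth factor gene, changed by -0.61 in AGP14 cells and -5.07 in wild type. Its mean levels were 6.62 in AGP14 serum, 7.24 in AGP14 2i, 6.03 in wild-type serum and 11.1 in wild-type 2i. A further probe set of Igf2 gave 0.41 in AGP14 cells. Myo1f changed by 3.80 in AGP14 cells and -0.47 in wild type. Several of these calls ended without single arrays. Gm20767 was not called without AGP14 serum replicate 1 (3.70, adjusted p = 0.0723) or AGP14 2i replicate 2 (3.91, adjusted p = 0.0693). AF067061 was lost without AGP14 serum replicate 1 (3.27, adjusted p = 0.195), AGP14 2i replicate 2 (2.44, adjusted p = 0.228) or any wild-type array (adjusted p up to 0.116), with the mean of all probe sets (0.0526) and without the intensity trend (0.0745). Fuz was lost without AGP14 serum replicate 1 (3.02, adjusted p = 0.157), AGP14 2i replicate 1 (3.40, adjusted p = 0.128), wild-type serum replicate 1 or either wild-type 2i array (up to 0.107), and with the mean of all probe sets (1.11, adjusted p = 0.56). Prss3 had an AGP14 2i and a wild-type serum array at 0, so its size was not measured. More negative in AGP14 were Cdx2 (-4.24), H1f4 (-4.22), Ces1f (-4.03), Nt5e (-3.99), Tmem207 (-3.74) and Tsga8 (-3.69). Nt5e, which encodes an ectonucleotidase, changed by -1.55 in AGP14 cells and 2.44 in wild type. Ces1f was listed at 0 in wild-type 2i and H1f4 on 1 AGP14 serum array, so the sizes of their differences were not measured. Tmem207 was not called without any 1 of 7 arrays, the exception being wild-type serum replicate 1 (adjusted p up to 0.146), nor without the intensity trend (0.059). Tsga8 was lost without AGP14 serum replicate 2, AGP14 2i replicate 1, wild-type serum replicate 1 or wild-type 2i replicate 1 (up to 0.0736). H1f4 was lost without AGP14 serum replicate 1 (-2.85, adjusted p = 0.0705) or AGP14 2i replicate 2 (-3.89, adjusted p = 0.0522), Ces1f without AGP14 serum replicate 2 (-3.29, adjusted p = 0.0685), and Cdx2 with the mean of all probe sets (-2.12, adjusted p = 0.0661). In the fit of the compared arrays alone Gm20767, AF067061, Fuz and H1f4 were not called (adjusted p of 0.0623 to 0.146).

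Against knockout, the more positive genes were Myo1f (4.51), Ifng (4.50), Porcn (4.22), Slco6c1 (4.21), Mrgpra4 (3.92) and Treh (3.91). Porcn changed by 2.06 in AGP14 cells and -2.16 in arrays labelled knockout. Ifng was listed at 0 on both AGP14 2i arrays, so its size was not measured. It was not called without AGP14 serum replicate 1 (adjusted p = 0.063) or knockout serum replicate 1 (0.0504), Treh not without AGP14 serum replicate 1 (0.0683) or AGP14 2i replicate 2 (0.065), and Slco6c1 not with the mean of all probe sets (1.41, adjusted p = 0.255). The more negative genes were 4930564D02Rik (-5.80), Myh8 (-4.14), Tsga8 (-4.08), 4933426B08Rik (-3.93), Lcn2 (-3.90) and Rasef (-3.67), of which Rasef changed by 0.01 in AGP14 cells and 3.69 in arrays labelled knockout. The genes 4930564D02Rik, Myh8, 4933426B08Rik and Lcn2 had an AGP14 serum array at 0, and Myh8, Tsga8 and 4933426B08Rik a knockout 2i array at 0, so these sizes were not measured. The call of 4933426B08Rik ended without any 1 of 7 arrays, the exception being AGP14 2i replicate 1 (adjusted p up to 0.193), after quantile normalization (0.0506), with the mean of all probe sets (0.0537) and without the intensity trend (0.0588). That of Lcn2 ended without AGP14 serum replicate 2 (-3.65, adjusted p = 0.0524), AGP14 2i replicate 1 (-3.66, adjusted p = 0.0602), knockout serum replicate 2 (-3.32, adjusted p = 0.0684) or knockout 2i replicate 1 (-2.96, adjusted p = 0.0789).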

How the results depend on the processing

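Without 1 array at a time, the count for serum against 2i in AGP14 cells lay between 1735 and 2481, that for the difference from wild type between 1469 and 2241, from knockout between 1751 and 2201, and that for the MEK inhibitor between 2973 and 4006 in wild type and between 2940 and 3701 in knockout. With the fixed replicate block the differences from wild type and knockout counted 4127 and 4168 genes, and with the random block 3634 and 3708. Neither block moved any other count over all genes by over 1.5 times. In the fit of the compared arrays alone the MEK inhibitor counts were 1822 in wild type and 2602 in knockout. Quantile normalization gave 1730 rises and 1619 falls in AGP14 cells. With the mean of all probe sets, Klf5 (-0.07) and Fgfr3 (-0.13) turned sign, and 155 of 185 called genes kept their call. The 14 arrays of the low spike level gave 1972 rises and 1571 falls. The causes of these moves were not tested. Levels near 0 bound differences only from 1 side.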
